A study of Mus musculus with 8 samples.

Results

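The 45 genes described here copy DNA, supply its building blocks, load new chromatin and repair breaks during S phase, the part of the cell cycle in which chromosomes are duplicated. They were picked by name from the 56691 genes of the deposited table, and all 45 were found there. For 41 of them the choice rested on known function, though it was made with earlier results of these data known. Cdc6, Ddias, Rad54b and Lrr1 were picked because earlier results of these data showed them higher in KO, so their difference between genotypes is given below as a description without a test. The study measured RNA in Kupffer cells, macrophages that reside in the liver sinusoids, in 4 libraries from VSIG4 KO mice (Vsig4-/-) and 4 from WT mice, and all 8 livers carried metastases of B16F10, a mouse melanoma line injected a week earlier. The cells were sorted as living, CD45-positive and Tim-4-positive. The labels give neither strain, sex, age nor how the knockout was made, and they do not say that each library came from its own mouse, so p-values measure the spread between libraries, which may be partly technical. The question of the design is how KO differs from WT.

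A cell preparing to divide loads the ring of Mcm2 to Mcm7 onto replication origins with the help of the origin recognition complex, Cdc6 and Cdt1. In S phase Cdc45 and the GINS proteins turn the ring into a running helicase, polymerases extend primers behind it, and the sliding clamp Pcna holds them on the template. Most of these genes are switched on together by E2F factors at the start of S phase, and they are low in resting cells. Kupffer cells divide rarely in the undisturbed liver, whereas B16F10 cells divide quickly.

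RefSeq promoter windows of GRCm38.p6, each 300 bases long and ending just after the annotated start, were available for 36 of the 45 members, with 44 windows in all. An E2F motif, searched on both strands as TTTCCCGC, TTTCGCGC, TTTGCCGC or TTTGGCGC, was present in 15 of the 44 member windows (34.1%) and in 744 of all 32851 windows (2.26%). The 5-base box CCAAT, searched likewise on both strands, was in 26 of the 44 member windows (59.1%) and in 37.4% of all windows. Matches may overlap each other, and they are descriptions of letters, not of bound sites. The windows below are those of 3 of the 4 genes chosen for their rise in KO, of Brca1 and Uhrf1, which stand out in the results, and of Mcm6, whose window had the most E2F matches among the members. Each is written 5′ to 3′ on the gene's own strand, with E2F and CCAAT matches in capitals, and for Uhrf1 the one of 2 windows with an E2F match is shown.
Cdc6, chr11:98907901-98908200, plus strand: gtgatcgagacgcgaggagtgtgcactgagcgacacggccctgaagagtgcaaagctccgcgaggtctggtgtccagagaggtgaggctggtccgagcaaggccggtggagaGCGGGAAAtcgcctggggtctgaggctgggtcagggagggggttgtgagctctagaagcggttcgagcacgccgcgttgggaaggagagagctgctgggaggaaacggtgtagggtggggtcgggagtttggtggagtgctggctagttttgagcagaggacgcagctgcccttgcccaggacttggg
Ddias, chr7:92874198-92874497, minus strand: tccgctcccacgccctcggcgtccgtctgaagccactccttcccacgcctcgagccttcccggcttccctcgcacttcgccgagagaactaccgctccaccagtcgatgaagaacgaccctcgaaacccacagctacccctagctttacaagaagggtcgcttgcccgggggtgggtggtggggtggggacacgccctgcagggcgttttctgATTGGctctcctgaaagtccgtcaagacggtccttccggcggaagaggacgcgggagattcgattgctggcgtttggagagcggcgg
Lrr1, chr12:69168564-69168863, plus strand: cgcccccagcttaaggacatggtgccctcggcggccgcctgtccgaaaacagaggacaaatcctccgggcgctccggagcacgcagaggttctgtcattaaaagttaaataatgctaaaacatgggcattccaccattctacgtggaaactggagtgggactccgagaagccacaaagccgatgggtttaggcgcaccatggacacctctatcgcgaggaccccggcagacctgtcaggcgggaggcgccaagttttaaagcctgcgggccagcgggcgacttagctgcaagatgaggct
Brca1, chr11:101551906-101552205, minus strand: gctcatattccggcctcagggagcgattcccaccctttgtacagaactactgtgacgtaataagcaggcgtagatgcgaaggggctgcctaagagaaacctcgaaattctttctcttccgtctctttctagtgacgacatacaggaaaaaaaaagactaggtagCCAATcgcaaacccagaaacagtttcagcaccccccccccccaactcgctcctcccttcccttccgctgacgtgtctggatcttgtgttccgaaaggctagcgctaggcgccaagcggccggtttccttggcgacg
Uhrf1, chr17:56304063-56304362, plus strand: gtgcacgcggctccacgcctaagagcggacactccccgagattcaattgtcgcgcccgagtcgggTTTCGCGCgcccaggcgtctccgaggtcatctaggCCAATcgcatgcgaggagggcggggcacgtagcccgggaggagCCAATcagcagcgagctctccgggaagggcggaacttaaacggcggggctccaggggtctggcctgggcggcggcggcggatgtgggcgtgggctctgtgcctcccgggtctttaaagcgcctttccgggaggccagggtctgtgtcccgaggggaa
Mcm6, chr1:128359656-128359955, minus strand: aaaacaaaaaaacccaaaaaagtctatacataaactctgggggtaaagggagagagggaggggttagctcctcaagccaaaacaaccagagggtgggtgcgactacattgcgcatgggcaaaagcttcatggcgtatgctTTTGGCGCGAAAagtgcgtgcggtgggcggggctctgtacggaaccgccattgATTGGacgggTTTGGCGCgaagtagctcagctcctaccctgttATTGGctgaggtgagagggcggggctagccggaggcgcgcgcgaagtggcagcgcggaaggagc
The Cdc6 window has its E2F match 138 bases before the start, and the Uhrf1 window has its own 185 bases before it. The Mcm6 window has 3 E2F matches, of which those starting 110 and 106 bases before the start overlap. The Ddias and Brca1 windows hold a CCAAT box and no E2F match, and the Lrr1 window holds neither. Among the 36 members, 15 had an E2F match in some window.

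Total counts ran from 16994406 to 19513844 in the KO libraries and from 15264043 to 19445494 in the WT libraries. Vsig4 had 2 to 9 counts in the KO libraries and 22498 to 46735 in the WT libraries, in the direction of the labels. The pigment genes Pmel, a melanosome structural protein, and Dct, an enzyme of melanin synthesis, were the measure of melanoma RNA. Pmel was at 193, 273, 1055 and 551 FPKM (the count scaled by exonic length and library total) in KO 1 to 4, against 34.5, 28.9, 431 and 376 FPKM in WT 1 to 4. Dct was at 156, 228, 805 and 415 FPKM in KO 1 to 4, against 29.1, 23.7, 365 and 306 FPKM in WT 1 to 4. WT 1 and WT 2 thus stood apart from the other 6 libraries, and KO 3 was the highest. The 12 Kupffer markers summed to 8973, 8991, 3057 and 7322 FPKM in KO 1 to 4, against 12377, 12315, 7537 and 8656 FPKM in WT 1 to 4. None of the 12 was at 0 in all libraries, so the Kupffer label has its markers, and each library also held melanoma RNA. In bulk RNA, fewer cells of a type and less RNA per cell cannot be told apart. The other marker sums were smaller and overlapped between genotypes: T and NK cell markers at 24.8 to 96.6 FPKM in KO and 40.2 to 107 FPKM in WT, and erythroid markers, which can come from dividing precursors, at 9.84 to 16.5 FPKM in KO and 11.4 to 44.2 FPKM in WT. Sums of B and plasma cell markers were 46.4 to 67.7 FPKM in KO and 42.5 to 99.4 FPKM in WT, and those of neutrophils and their precursors 72.3 to 148 FPKM in KO and 67.2 to 157 FPKM in WT. Monocyte markers summed to 33.8 to 42.5 FPKM in KO and 27.5 to 41.8 FPKM in WT, hepatocyte markers to 69.5 to 317 FPKM in KO and 155 to 781 FPKM in WT, and sinusoidal endothelial markers to 24.96 to 74.4 FPKM in KO and 53.6 to 94.9 FPKM in WT. None of the markers was at 0 in all libraries, and their part in the results below was not tested.

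All 45 members passed the filter on low counts. Their mean level over the 8 libraries ran from 1.46 FPKM for Brca2 to 93.2 FPKM for Pcna, with a median of 6.67 FPKM. KO 3, the library richest in pigment RNA, was the highest of the 8 for 44 of 45 members, against 39.6% of the 15870 genes tested. WT 1 or WT 2, the poorest in pigment RNA, was the lowest for 43 of 45 members, against 45.8% of genes tested. The ratio of the highest to the lowest library ran from 1.40 for Pola2, the second subunit of the primase-polymerase complex, to 20.8 for Brca1, with a median of 4.32.

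**Figure D1:**
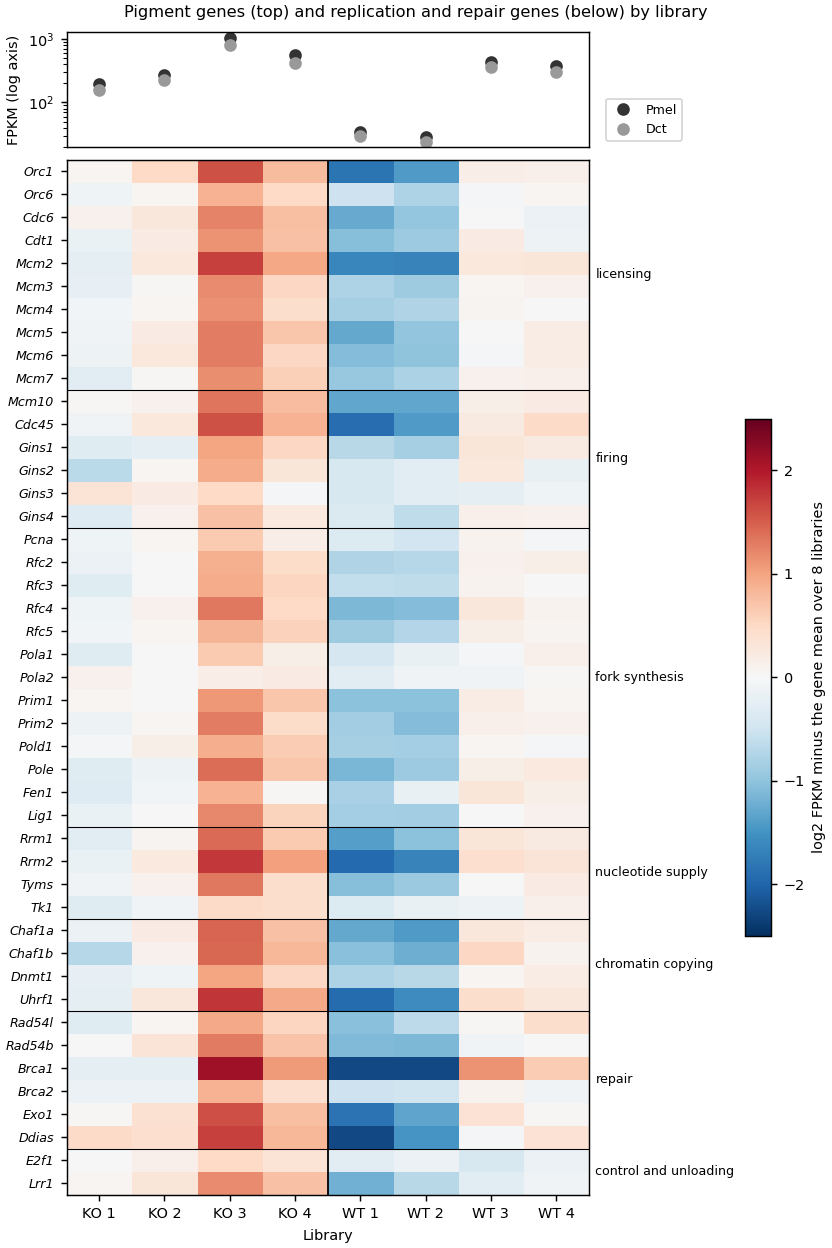
The upper panel plots Pmel and Dct in FPKM on a log axis for KO 1 to 4 and WT 1 to 4, and the lower panel shows each of the 45 members as log2 FPKM minus its mean over the 8 libraries, in rows grouped by role. KO 3 is the reddest column for 44 members, WT 1 and WT 2 are blue for most, and KO 1, KO 2, WT 3 and WT 4 lie between.

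Each gene was then set against the pigment genes over the libraries. The slope is the change in a gene's log2 level per unit of the mean log2 CPM (counts scaled to a common library total) of Pmel and Dct, with genotype in the model, so that a slope of 1 means a change in proportion to pigment RNA and a slope of 0 no change with it. The slope was positive past an adjusted p of 0.05 (edgeR quasi-likelihood test, adjusted over all genes) for 37 of 45 members and negative for 0. Of all genes tested, 20.7% were called with a positive slope and 13.9% with a negative one. The median slope was 0.30 over the members and 0.0014 over all tested genes. Without WT 1 and WT 2, the libraries that stood apart, 41 of 45 members were called, against 21.2% of genes, and the members' median slope was 0.50. With the replicate number as a block, 1 of 45 members was called, against 1% of genes, and the median was 0.082. The plot of slope distributions shows the members to the right of the bulk of genes.

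**Figure D2:**
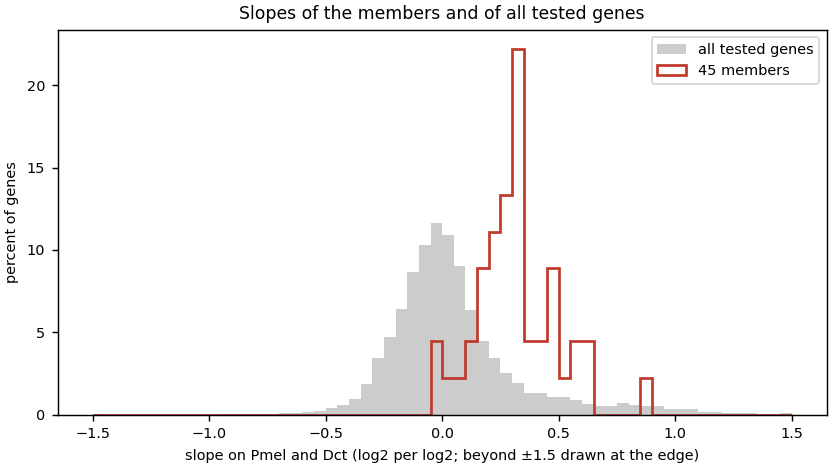
Histogram of slopes on Pmel and Dct (log2 per log2) as percent of genes, for all tested genes in grey and the 45 members as a red outline. All tested genes centre near 0.0014 (median), and the members centre at 0.30 with Brca1 farthest right at 0.89.

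Members' log2 CPM correlated with that of Pmel at a median Pearson r of 0.932 over the 8 libraries, and 38 of 45 were called (exact permutation over 40320 pairings, adjusted over all genes), against 23.2% of genes. With Spearman's rho, whose median was 0.905, 34 of 45 were called, against 22% of genes. Since WT 1 and WT 2 stood apart and were also the libraries farthest from the median, the relation was computed over the other 6. There the median r was 0.909, and 25 of 45 members were called (exact permutation over 720 pairings, adjusted over all genes), against 14.8% of genes. For Dct the median r was 0.925 over 8 libraries, with 38 members called against 22.6% of genes, and 0.909 over 6, with 25 called against 14.2% of genes. The correlations hold no genotype term, and Pmel and Dct also had higher estimated levels in KO. The 38 called for each marker include Cdc6, Ddias, Rad54b and Lrr1, so these calls are not free of the choice on KO against WT. None of these genes was called with Spearman's rho or over the 6 libraries. The points of each relation share library, depth and scaling, and genes vary together in these libraries, so the members are not independent cases.

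Single members differed in how far the relation held among the 6 libraries. Brca1 correlated with Pmel at r = 0.986 over 8 libraries and 0.963 over 6 (exact permutation, adjusted p = 0.00221 and 0.0311). Rrm2 did so at r = 0.986 over 8 and 0.970 over 6 (exact permutation, adjusted p = 0.00189 and 0.0189). Cdc6 correlated at r = 0.916 over 8 libraries and at 0.750 over 6. Its p-values are left out for both, since Cdc6 was chosen for rising in KO and the correlation holds no genotype term. The slope of Cdc6 without WT 1 and WT 2 was called (0.44 ± 0.063 SE, edgeR adjusted p = 0.00098). The slope fit holds genotype and the correlation does not, so slope and correlation are not the same measure. E2f1 had r = 0.342 over 8 libraries (exact permutation, adjusted p = 0.503). The summed level of the 45 members was 454, 542, 1130 and 742 FPKM in KO 1 to 4, against 283, 287, 558 and 552 FPKM in WT 1 to 4. WT 3 and WT 4 thus lay above KO 1 and KO 2 in this sum, as they did in Pmel.

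Brca1, which directs repair of double-strand breaks by homologous recombination, had the steepest slope on the pigment genes. It was at 4.38, 4.34, 22.1 and 10.7 FPKM in KO 1 to 4, against 1.07, 1.06, 11.1 and 7.88 FPKM in WT 1 to 4. The genotypes overlapped, and the order of the libraries was nearly that of Pmel. Per 100 FPKM of Pmel, Brca1 had 2.27, 1.59, 2.09 and 1.94 FPKM in KO 1 to 4, against 3.10, 3.66, 2.59 and 2.10 FPKM in WT 1 to 4, so its share of pigment RNA varied far less than its level. Its slope was 0.89 ± 0.056 (SE; edgeR adjusted p = 3.23e-06) and 1.05 without WT 1 and WT 2, and it was the member still called with the block (slope 0.61, edgeR adjusted p = 0.0476).

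**Figure D3:**
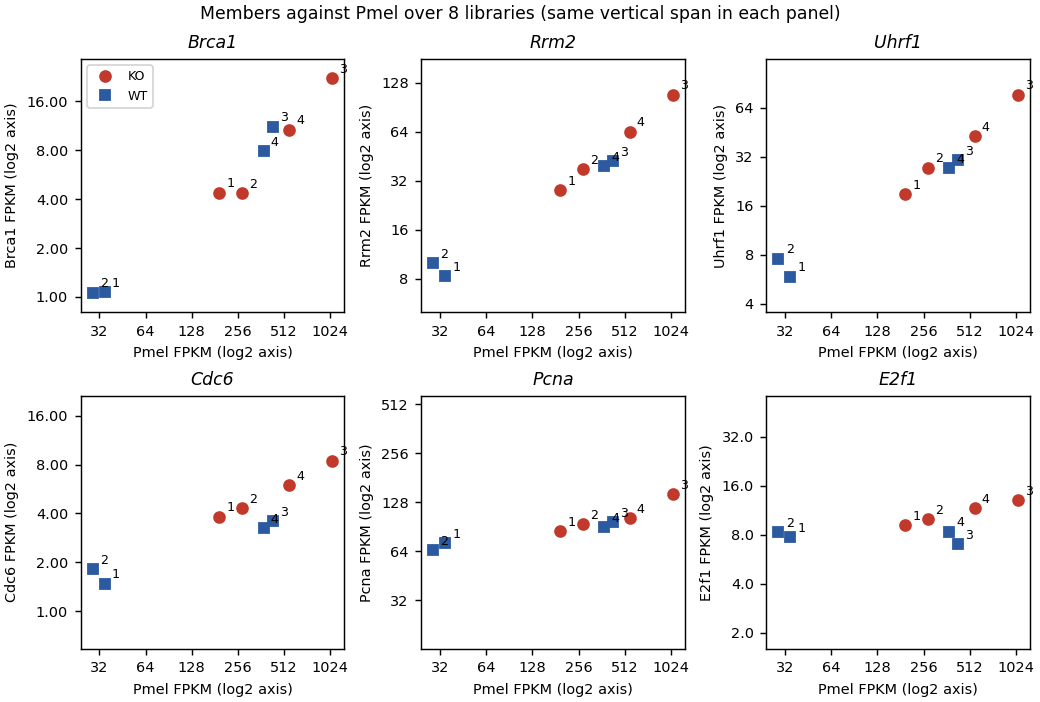
Each panel plots 1 member against Pmel, both in FPKM on log2 axes with the same vertical span, for KO (red circles) and WT (blue squares), with replicate numbers beside the points. Brca1, Rrm2 and Uhrf1 climb steeply with Pmel, Cdc6 less so with KO 1 and KO 2 above WT 3 and WT 4, Pcna only slightly, and E2f1 hardly at all.

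Of the licensing genes, all 10 had a positive slope past the threshold, from 0.19 for Orc6 to 0.56 for Mcm2, with a median of 0.30. Orc1 and Orc6 belong to the complex that marks origins, and Cdt1 brings the Mcm ring to it. Mcm3, the most abundant ring subunit in all 8 libraries, was at 28.0, 32.9, 72.7 and 45.8 FPKM in KO 1 to 4, against 18.9, 17.3, 33.1 and 34.8 FPKM in WT 1 to 4. Mcm6, another ring subunit, was at 24.5, 32.2, 64.5 and 38.2 FPKM in KO 1 to 4, against 12.7, 13.3, 26.1 and 30.6 FPKM in WT 1 to 4. For both, the KO and WT ranges overlapped and WT 1 and WT 2 were lowest. The slopes were 0.28 ± 0.053 for Mcm3 (SE; edgeR adjusted p = 0.00382) and 0.32 ± 0.051 for Mcm6 (SE; edgeR adjusted p = 0.00135). The 6 ring subunits lie in the helicase in equal numbers, and their transcripts were less even where pigment RNA was low: the highest was 1.67 to 1.90 times the lowest in the 4 KO libraries and 1.65 and 1.74 times in WT 3 and WT 4, but 3.41 and 3.22 times in WT 1 and WT 2. Mcm2 was the lowest subunit in WT 1 and WT 2, at 5.54 and 5.38 FPKM, while it reached 56.2 FPKM in KO 3.

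Of the 6 genes that fire origins, 4 had a positive slope past the threshold. They were Mcm10, Cdc45, Gins1 and Gins4, and the largest slope was 0.55, for Cdc45. Gins2 was not called (slope 0.17, edgeR adjusted p = 0.137), but it was without WT 1 and WT 2 (slope 0.57, edgeR adjusted p = 0.00516). Gins4 was at 17.2, 23.1, 35.4 and 25.3 FPKM in KO 1 to 4, against 16.6, 13.8, 23.3 and 23.1 FPKM in WT 1 to 4 (slope 0.18 ± 0.046 SE, edgeR adjusted p = 0.0157; 0.0588 without WT 2). Gins1 was at 6.91, 7.30, 16.85 and 12.1 FPKM in KO 1 to 4, against 5.27, 4.78, 10.4 and 9.93 FPKM in WT 1 to 4 (slope 0.31 ± 0.056 SE, edgeR adjusted p = 0.00303). Both overlapped between genotypes. Gins3, in contrast, was at 3.67, 3.31, 4.06 and 2.81 FPKM in KO 1 to 4, against 2.20, 2.39, 2.48 and 2.68 FPKM in WT 1 to 4. All of its KO values lay above all WT values, its slope was 0.0013 ± 0.051, and it was not called (edgeR adjusted p = 0.987). The 4 GINS subunits form 1 complex, yet their slopes ran from that of Gins3 to that of Gins1.

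Of the 13 genes of DNA synthesis at the fork, 10 had a positive slope past the threshold, and the exceptions were Pola1, Pola2 and the flap nuclease Fen1. Without WT 1 and WT 2, Pola1 and Fen1 were called (slopes of 0.30 and 0.43, edgeR adjusted p = 0.00951 and 0.0260), and Pola2 was not (edgeR adjusted p = 0.710). Pcna was the most abundant member and among the flattest, at 84.9, 94.0, 143 and 102 FPKM in KO 1 to 4, against 71.4, 65.05, 96.5 and 89.5 FPKM in WT 1 to 4. Its groups overlapped, and its slope of 0.12 ± 0.041 (SE; edgeR adjusted p = 0.0444) was past the threshold in only 1 of 8 fits that left out a library, with adjusted p up to 0.115. Lig1, the ligase that joins Okazaki fragments, was at 13.7, 15.5, 35.2 and 22.7 FPKM in KO 1 to 4, against 8.48, 8.43, 15.6 and 16.6 FPKM in WT 1 to 4. Its slope was 0.29 ± 0.053 (SE; edgeR adjusted p = 0.00329). The clamp loader genes Rfc2, Rfc3, Rfc4 and Rfc5, the primase genes Prim1 and Prim2 and the polymerase genes Pold1 and Pole were all called, with slopes from 0.22 for Rfc3 to 0.39 for Pole. Pola2 was flat, at 4.42, 4.10, 4.59 and 4.72 FPKM in KO 1 to 4, against 3.37, 3.85, 3.87 and 4.20 FPKM in WT 1 to 4 (slope -0.0018 ± 0.035 SE, edgeR adjusted p = 0.974). Prim1 and Prim2, its partners in the primase-polymerase complex, had slopes of 0.32 and 0.33.

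Nucleotide supply held both a steep and a flat gene. Rrm2, the regulated subunit of ribonucleotide reductase, which makes deoxyribonucleotides, was at 28.0, 37.6, 108 and 63.8 FPKM in KO 1 to 4, against 8.25, 9.91, 42.3 and 39.4 FPKM in WT 1 to 4. Its slope was 0.61 ± 0.048 (SE; edgeR adjusted p = 1.49e-05). Tk1, thymidine kinase of the salvage route, was at 13.3, 15.6, 23.1 and 22.4 FPKM in KO 1 to 4, against 13.01, 14.5, 15.1 and 18.0 FPKM in WT 1 to 4 (slope 0.084 ± 0.051 SE, edgeR adjusted p = 0.219; called without WT 1 and WT 2, slope 0.28, edgeR adjusted p = 0.0217). Rrm1 and the thymidylate synthase gene Tyms were called, with slopes of 0.43 and 0.33. Per 100 FPKM of Pmel, Rrm2 had 14.5, 13.8, 10.2 and 11.6 FPKM in KO 1 to 4, against 23.9, 34.2, 9.81 and 10.5 FPKM in WT 1 to 4, so that only WT 1 and WT 2 stood out.

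The 4 genes that copy chromatin states all had a positive slope past the threshold. Uhrf1, which reads hemimethylated DNA and recruits the maintenance methyltransferase Dnmt1, was at 18.8, 27.4, 77.1 and 42.9 FPKM in KO 1 to 4, against 5.86, 7.57, 30.5 and 27.25 FPKM in WT 1 to 4 (slope 0.60 ± 0.055 SE, edgeR adjusted p = 4.31e-05). Dnmt1 itself was at 16.6, 17.9, 38.1 and 27.5 FPKM in KO 1 to 4, against 11.3, 11.85, 19.9 and 21.8 FPKM in WT 1 to 4 (slope 0.26 ± 0.051 SE, edgeR adjusted p = 0.00508). Chaf1a and Chaf1b, subunits of the factor that places histones behind the fork, had slopes of 0.46 and 0.47.

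The 6 repair genes were all called, with Brca1 as above and Brca2 the flattest at 0.17, which was past the threshold in 1 of 8 fits that left out a library. Rad54l, a motor protein of recombination, was at 1.65, 2.09, 3.90 and 2.93 FPKM in KO 1 to 4, against 0.98, 1.29, 2.05 and 2.74 FPKM in WT 1 to 4 (slope 0.30 ± 0.060 SE, edgeR adjusted p = 0.00544). Exo1, a nuclease that trims DNA ends, had a slope of 0.49. E2f1, a transcription factor that activates many of the other genes here, did not follow them: it was at 9.17, 10.01, 13.1 and 11.7 FPKM in KO 1 to 4, against 7.73, 8.32, 7.01 and 8.34 FPKM in WT 1 to 4. All of its KO values lay above all WT values, and its slope was -0.016 ± 0.044 (SE; edgeR adjusted p = 0.802).

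Between genotypes, every member had a higher estimated level in KO, as did 7871 of the 15870 genes tested. The 45 include the 4 chosen for rising, and none of the 41 chosen on function passed the test. In edgeR 0 of 41 were called, against 0% of genes called higher, and Vsig4 was the only one of 15870 genes called, which is 0.0063% called lower. At an unadjusted p under 0.05, 15 of the 41 had higher values (36.6%), against 4.23% of all genes. The 41 share a function with the 4 chosen for rising, and genes vary together in these libraries, so this share is not independent of that choice. DESeq2 called 0 of 41, against 0.189% of genes called higher. The median log2 fold change (KO minus WT) was 0.73 over the 41 and -0.0028 over all tested genes. Over all 45, which include the 4 chosen for rising, it was 0.77, and 0.42 without KO 3. With the replicate number as a block, 29 of the 41 were called higher, against 8.98% of genes. Without pair 4, 29 were called, beside 1475 of all genes called higher. Without pair 1 it was 3, beside 43 of all genes. Without pair 2 or pair 3, 0 were called, beside 1 and 0 of all genes called higher. The median blocked log2 fold change over all 45 was 0.74 with every pair, 0.69 without pair 2 and 0.63 without pair 3, so the folds stayed about as large where the calls were lost. With the mean of Pmel and Dct as a covariate, the median over the 41 was 0.18, against 0.0136 over all tested genes. Of the 41, 33 lay above 0, as did 8361 of the 15870 genes tested. The other 8 lay below 0, and 0 were called (0% of genes were called higher). Without the covariate, leaving out WT 1 and WT 2 gave a median over the 41 of 0.35, against 0.024 over all tested genes. Pmel itself had a log2 fold change of 1.20 ± 0.91 (SE; edgeR adjusted p = 0.518), and 1.80 ± 0.40 with the replicate block (SE; edgeR adjusted p = 0.0322). Dct, likewise, had 1.73 ± 0.43 with the block (SE; edgeR adjusted p = 0.0402). Under the block, then, both the pigment genes and 29 members were called higher in KO. The labels do not state the pairing that the block assumes. Beyond the covariate fit, the part of pigment RNA in these values was not tested.

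**Figure D4:**
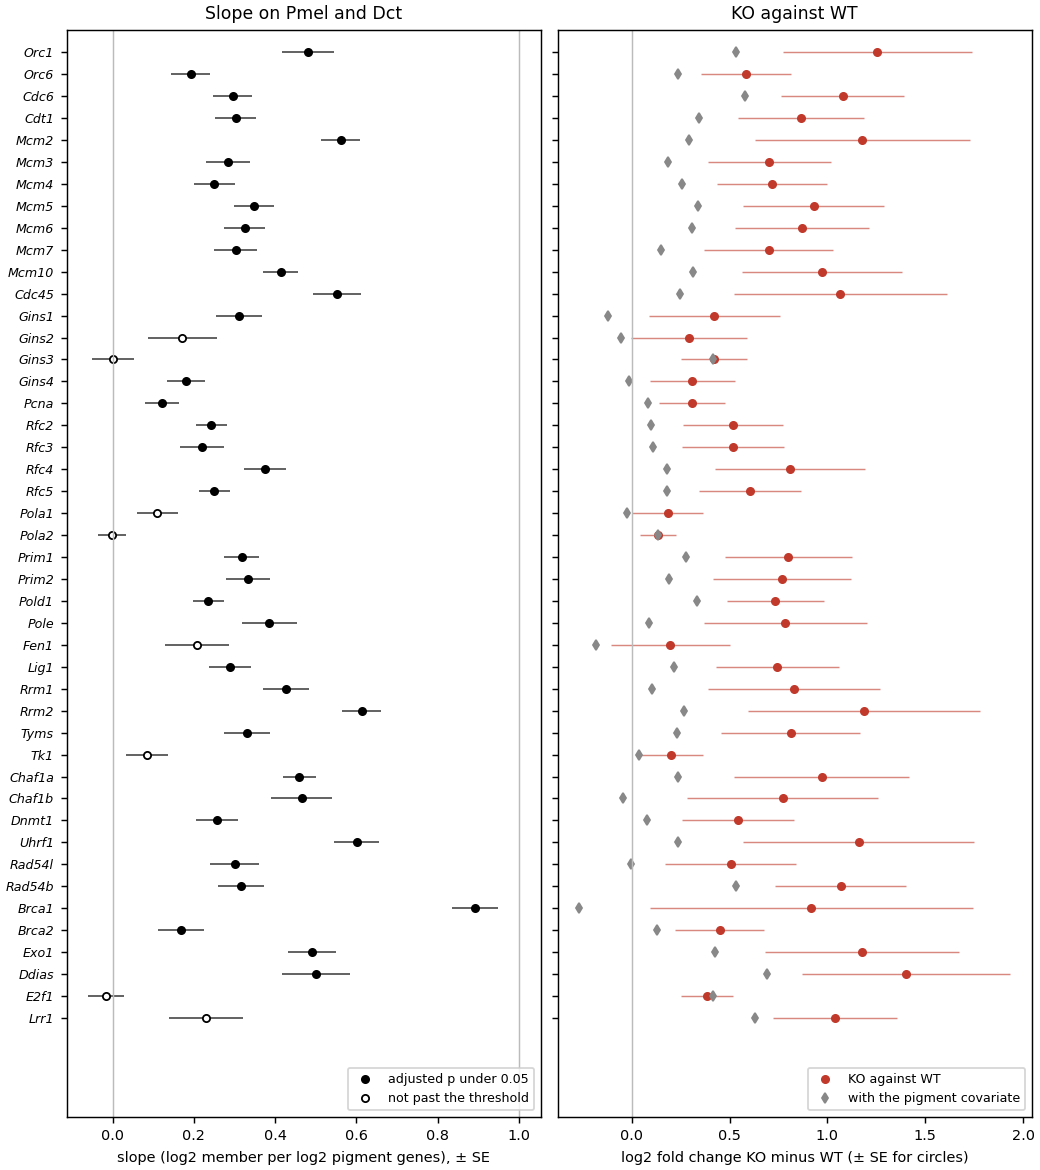
For each of the 45 members, the left panel shows the slope on Pmel and Dct with its SE (filled where past an adjusted p of 0.05, with lines at 0 and 1), and the right panel the log2 fold change of KO minus WT with its SE (red circles) and the same with pigment as a covariate (grey diamonds). The diamonds lie nearer 0 for most members (median 0.22, against 0.77 for the circles). Those of E2f1, Gins3 and Pola2, whose slopes are flat, hardly differ from the circles.

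The 4 genes chosen for higher values in KO are given as values. Cdc6 (ENSMUSG00000017499, chromosome 11, 98798627 to 98814766, plus strand, as the table places it on a build it does not state), the loader of the Mcm ring, was at 3.82, 4.32, 8.45 and 5.96 FPKM in KO 1 to 4, against 1.48, 1.82, 3.58 and 3.24 FPKM in WT 1 to 4. The mean was 5.64 ± 2.09 FPKM in KO and 2.53 ± 1.03 FPKM in WT (SD, n = 4 each), with a log2 fold change of 1.08 ± 0.31 (SE). With the pigment covariate the log2 fold change was 0.58 ± 0.16. Ddias (ENSMUSG00000030641, chromosome 7, 92506733 to 92523455, minus strand), a DNA damage-induced inhibitor of apoptosis, was at 1.99, 1.90, 4.67 and 2.52 FPKM in KO 1 to 4, against 0.30, 0.51, 1.37 and 1.84 FPKM in WT 1 to 4. Its log2 fold change was 1.40 ± 0.53, and 0.69 ± 0.26 with the covariate. The margin between the genotypes was small, with KO 2 at 1.90 FPKM and WT 4 at 1.84 FPKM.

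Rad54b (ENSMUSG00000078773, chromosome 4, 11558922 to 11615805, plus strand), a relative of Rad54l in recombination, was at 1.51, 1.87, 3.71 and 2.45 FPKM in KO 1 to 4, against 0.70, 0.69, 1.42 and 1.49 FPKM in WT 1 to 4. Its log2 fold change was 1.07 ± 0.33, and 0.53 ± 0.19 with the covariate. Lrr1 (ENSMUSG00000034883, chromosome 12, 69215588 to 69225783, plus strand), a ubiquitin ligase subunit that helps to remove the helicase when replication ends, was at 1.76, 2.12, 3.88 and 2.83 FPKM in KO 1 to 4, against 0.74, 1.06, 1.43 and 1.61 FPKM in WT 1 to 4. It rests on few reads, 48 to 99 counts in the KO libraries and 17 to 37 in the WT libraries. Its log2 fold change was 1.04 ± 0.32, and 0.63 ± 0.30 with the covariate. In all 4 genes every KO value lay above every WT value, which is what they were chosen for. On the pigment measure, which did not choose them, Cdc6, Ddias and Rad54b were called (slopes of 0.30, 0.50 and 0.32, edgeR adjusted p = 0.00172, 0.00216 and 0.00296), while Lrr1 was not (0.23, edgeR adjusted p = 0.0762).

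Among the 41 members chosen on function, E2f1 and Gins3 alone had every KO value above every WT value, which is 4.88% against 3.43% of all tested genes, a share near the background. The log2 fold change of E2f1 was 0.39 ± 0.13 (SE; edgeR adjusted p = 0.492), and 0.42 ± 0.15 with the pigment covariate. That of Gins3 was 0.42 ± 0.17 (SE; edgeR adjusted p = 0.492), and 0.42 ± 0.19 with the covariate. Neither passed the test. The covariate fit is the same model that gave the slopes, so for genes with a flat slope the fold hardly changes by construction. Their folds with the covariate are therefore not a further result.

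A further 60 genes of replication and S phase were examined alongside. Of these, 44 had a positive slope on the pigment genes past the threshold and 3 a negative one, against 20.7% and 13.9% of all genes. The median slope was 0.27, against 0.0014 over all tested genes. With the replicate block 0 of the 60 had a slope past the threshold, against 1% of genes called with a positive one. The steepest were Fanci (0.62 ± 0.076), of the Fanconi crosslink repair pathway, Ccne1 (0.59 ± 0.050), the cyclin that starts S phase, and Cdk2 (0.57 ± 0.059), the kinase it activates (SE). Cdk2 overlaps Pmel on the opposite strand in the deposited coordinates, and with the strand setting unknown, reads from the shared stretch cannot be told apart. The 3 with falling slopes were the deoxycytidine kinase gene Dck, the small polymerase delta subunit gene Pold4 and the end resection gene Rbbp8, named after their values were seen. None of the 60 was called between genotypes in edgeR, against 0% of genes called higher. With the replicate block 39 of the 60 were called higher in KO and 1 lower, against 1425 and 795 of the 15870 genes tested. Without the block, the median log2 fold change of the 60 was 0.66, against -0.0028 over all tested genes. With the pigment covariate the median was 0.12, against 0.0136 over all tested genes.

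Counting could not be checked for strand. In the deposited coordinates 24 of the 45 members overlap another gene, and for 7 of these (Orc6, Cdc45, Gins2, Rfc4, Rfc5, Fen1 and Rad54l) that gene, on the opposite strand, has more counts than the member, so their levels are less certain.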

How the data were processed

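RNA was measured in 4 KO and 4 WT libraries of sorted Kupffer cells, and the labels' protocols name the VAHTS Universal V8 library kit. HTSeq 0.6.1 and the build mm10 are named in the submitters' processing notes. No aligner, strand setting or annotation release is given in the sources used here. Per the file headers, the authors deposited a count and an FPKM value for each gene and library. FPKM equalled the count divided by exonic size and column total, within 0.015 for 100% of genes. Gene sizes and positions are other numbers in the deposited table. Of 52073 gene identifiers shared with GENCODE M21, 1472 had the same position, so no build is named for the deposited coordinates. Columns whose names start with C were read as WT and those with K as KO, and their digits were matched to the titles' numbers.

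Levels are deposited FPKM. Tests used the counts: filterByExpr kept 15870 genes, libraries were scaled by TMM (factors 0.917 to 1.07), and edgeR 4.0.16 (R 4.3.3) ran the 2-sided quasi-likelihood F test at 0.05 after Benjamini-Hochberg adjustment across every gene tested. Models held genotype, or genotype and the mean log2 CPM (prior count 2) of Pmel and Dct. An SE is the size of the unshrunken coefficient divided by the square root of F. Correlations used every pairing of the 8 libraries for each gene, so that 2.48e-05 is the smallest p they can give. The covariate is itself measured in these libraries. At 0 counts the limit is 3 counts, or 0.154 to 0.197 CPM by library, which covers counting error alone.

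The genotypes share the numbers 1 to 4. Libraries with the same number deviated together from their genotype means, with correlations of 0.561 (number 1), 0.544 (number 2), 0.660 (number 3) and 0.290 (number 4). Each exceeds 0.1, and on that ground, since no label says it, the libraries were treated as paired in the block fit. Libraries with different numbers were not compared in this way, so these values cannot show that a number marks a pair. Alternatives were other scaling, no filter, DESeq2 1.42.0, the replicate block, the pigment covariate, other melanoma measures and leaving out libraries. On simulated counts of 15870 genes, the KO against WT fit recovered 43 of 100 changes of 1 log2 unit. Of changes of 2 log2 units it recovered 99 of 100, and 7 of its 150 calls were false. The slope fit recovered 73 of 100 slopes of 0.25 and 99 of 100 slopes of 0.5, with 4 of 176 calls false. The changed genes had an average log2 CPM above 2. The simulated noise was drawn for each gene separately, whereas genes vary together in these libraries, so these numbers do not carry over to them. The members and lists were chosen with earlier results of these data known. Values per library were given for the 4 genes chosen on KO against WT, the 2 most abundant members of each role and the 3 steepest and 3 flattest slopes; of the 60 other genes the 3 steepest are named.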

Additional observations from a re-analysis of the deposited data

Results flagged for a closer look

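Among 94 groups of member and pigment gene values and 18 groups of marker sums, 1 had a library far from the other 3 of its genotype, where chance flags about 1 in 20. It was the hepatocyte marker sum, at 781 FPKM in WT 3, with the next WT library at 246 FPKM. No member was flagged in either genotype. Leaving out WT 3 moved the members' median log2 fold change to 0.92 and their median slope to 0.33.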

How the results depend on the processing

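For KO against WT, 1 gene was called in the main analysis and 2 without the filter, 62 by DESeq2 and 2220 with the replicate block. The block gave 207, 2, 1 and 2229 genes without pairs 1, 2, 3 and 4. Members called were 0 of 41 in the main analysis, 29 with the block, and 3, 0, 0 and 29 with the block and without pairs 1, 2, 3 and 4. Leaving out 1 library gave 1 to 2 genes, 0 members and a median member log2 fold change between 0.42 (without KO 3) and 0.92 (without WT 3). That median was 0.22 with the pigment covariate. For the pigment slope, 5488 genes and 37 members were called, and 163 genes and 1 member with the replicate block. The members' median slope fell to 0.082 there. The blocked slope was above 0 for 37 of the 45 and lowest for Gins2 (-0.20), E2f1 (-0.18) and Tk1 (-0.17). Of the members called in the main fit, Rfc3 (-0.069), Dnmt1 (-0.000198) and Brca2 (-0.13) were below 0 with the block. Leaving out 1 library gave 3387 to 5421 genes (lowest without WT 3) and 35 to 36 members, with a median slope of 0.27 to 0.34. Without WT 1 and WT 2, chosen after the data were seen, the median slope was 0.50. Members correlated with Pmel numbered 29 to 38, and with Dct 27 to 38, over the fits without 1 library. The numbers of calls and medians stayed within 1.5 times under DESeq2 size factors for both comparisons. The blocked slope fit leaves few degrees of freedom, and the cause of its lower counts was not tested. Depth limits Lrr1 most, at 17 to 99 counts.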
